A study of Mus musculus with 2 samples.

Results

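The receptor genes Il7r, Il2ra, Il2rb, Il2rg, Il4ra, Il21r and Kit, 7 of the 32285 genes in the deposited tables, are described here. They were picked by symbol as the subunits of the common gamma-chain cytokine receptors together with the stem cell factor receptor. Their transcripts were counted in single cells of the small intestine of Il23r-eGFP mice, whose green fluorescence reports expression of the IL-23 receptor. The IL-23 library held eGFP-positive immune cells exposed for 2 hours to recombinant mouse IL-23, and the unstimulated library held cells of the same tissue, reporter genotype and sort. The protocol given for both libraries mentions the cytokine, so the unstimulated group rests on its treatment label. The number, age and strain of the mice are not stated. With 1 library per group (n = 1) no difference was tested and none has a replicate check, and all intervals below are 95% intervals that cover counting error only.

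The common gamma chain, encoded by Il2rg, is the shared signalling subunit of the receptors for IL-2, IL-4, IL-7, IL-9, IL-15 and IL-21, and it works through the kinase JAK3. Each cytokine is recognised by a private chain (IL-7Rα, IL-4Rα, IL-21R) or, for IL-2 and IL-15, by a shared β chain with or without an α chain. KIT is a receptor tyrosine kinase for stem cell factor and belongs to another family. In the gut, IL-7Rα and KIT are classic surface markers of group 3 innate lymphoid cells (ILC3s), and IL-2 and IL-7 support the survival of these cells.

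Barcodes with 500 or more genes whose mitochondrial unique molecular identifiers (UMIs) did not exceed 10% were taken as cells, which gave 9251 IL-23 cells and 10790 unstimulated cells. Cells with no UMI of Cd3e, Cd3d or Cd3g were divided into an Ncr1+ subset (1258 IL-23 and 1052 unstimulated cells), a Ccr6+ subset (1464 IL-23 and 1535 unstimulated cells) and a subset with a UMI of neither gene (5802 IL-23 and 7440 unstimulated cells). Of the cells with a Cd3e UMI, Trdc+ ones were taken as gamma delta T cells (221 IL-23 and 232 unstimulated cells). Trac+ ones were taken as alpha beta T cells (99 IL-23 and 163 unstimulated cells). In each CD3-negative subset of either library, 8 of 8 ILC3 markers exceeded 10 CPM (a gene's UMIs scaled to the subset's total, the usual relative abundance), and Cd3e, Cd3d and Cd3g were at 0 by construction. The same 8 markers exceeded 10 CPM in both T cell subsets, at a lower summed level (8948 and 14548 CPM with IL-23, 1903 and 2686 CPM unstimulated) than in the CD3-negative subsets (26989 to 31443 CPM with IL-23, 5691 to 8486 CPM unstimulated). The IL-23 cells held more UMIs per cell, with a median of 6087 against 4928 in unstimulated cells, and 3.25% against 2.64% mitochondrial UMIs. The 2 libraries shared 29 barcodes, 25 of them among the kept cells.

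The promoter windows of the 3 members that differed most between the libraries among those at 10 CPM or more in CD3-negative cells (Kit, Il2ra, Il7r), and of Il21r, the member most restricted to T cells, are shown because they are the sequence next to the transcripts counted. They are the bases before the RefSeq transcription start (GRCm38.p6), 5′ to 3′ on the gene's strand, without any stretch that GENCODE annotates as an exon, and capitals mark matches to the motifs named after them. The windows lie at chr15:9529877-9530040 on the minus strand (Il7r), chr2:11642542-11642791 (Il2ra), chr7:125603179-125603428 (Il21r) and chr5:75574737-75574915 (Kit, the first of its starts), the last 3 on the plus strand. The Il7r stretch lies inside the gene as GENCODE bounds it, in an intron of the transcript that starts farthest upstream, whose first exon ends where the stretch begins, and upstream of the starts of the gene's other transcripts.
Il7r: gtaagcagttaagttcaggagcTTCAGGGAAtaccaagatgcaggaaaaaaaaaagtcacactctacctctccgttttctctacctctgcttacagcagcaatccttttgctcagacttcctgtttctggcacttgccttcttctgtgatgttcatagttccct
Il2ra: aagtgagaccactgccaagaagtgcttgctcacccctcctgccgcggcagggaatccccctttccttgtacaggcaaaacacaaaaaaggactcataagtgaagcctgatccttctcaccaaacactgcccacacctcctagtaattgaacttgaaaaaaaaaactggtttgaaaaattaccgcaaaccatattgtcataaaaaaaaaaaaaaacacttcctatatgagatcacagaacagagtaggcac
Il21r: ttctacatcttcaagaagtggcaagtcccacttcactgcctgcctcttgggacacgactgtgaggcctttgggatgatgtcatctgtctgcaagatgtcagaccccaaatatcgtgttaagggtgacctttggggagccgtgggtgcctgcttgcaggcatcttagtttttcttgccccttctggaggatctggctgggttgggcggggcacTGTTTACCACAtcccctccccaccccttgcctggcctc
Kit: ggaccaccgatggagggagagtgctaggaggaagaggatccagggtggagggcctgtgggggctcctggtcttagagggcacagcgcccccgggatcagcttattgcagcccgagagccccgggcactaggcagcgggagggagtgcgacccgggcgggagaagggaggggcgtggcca

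RefSeq windows were found for 6 of the 7 members. Both strands of the full 250 bases were searched for 6 motifs, TTCNNNGAA for STAT factors, TGANTCA for AP-1, TGTGGT for RUNX, GTAAACA for FOXO, CCGGAA for ETS and AGATAA for GATA factors. The Il7r window held 1 STAT match, which begins 142 bases before the start, and 7.02% of all 32851 mouse windows held such a match. In the Il21r window a FOXO match (3.17% of all windows) and a RUNX match (14.0%) overlapped, beginning 38 and 33 bases before the start. The Il2rg window held a RUNX match and an ETS match (12.0% of all windows), 227 and 17 bases before its start. No match to these letters was found in the windows of Il2ra, Il4ra and Kit, where AP-1 and GATA letters occur in 6.75% and 9.99% of all windows.

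Over the 7 members and 5 subsets there were 35 pairs, of which 32 were measured, that is, reached 10 CPM in 1 or both libraries and 20 UMIs over both. Between the libraries 6 pairs were at least 1.5-fold lower with IL-23, 0 were at least 1.5-fold higher and 26 lay between. The lower pairs were Kit in all 5 subsets and Il21r in gamma delta T cells. However, the share of T cells with a Kit UMI was within the wide intervals of the small background gates given below. Among all genes measured, 7.26% were lower by this size in the Ncr1+ subset, 4.32% in the Ccr6+ subset, 3.89% in the neither subset, 10.6% in gamma delta and 12.2% in alpha beta T cells. The shares of genes higher by this size were 5.18% in the Ncr1+, 2.87% in the Ccr6+, 4.09% in the neither, 8.01% in the gamma delta and 7.83% in the alpha beta subset. The median member stood at a log2 ratio of -0.21, -0.14, -0.15, -0.19 and -0.13 in the 5 subsets, beside -0.12, -0.11, -0.11, -0.06 and -0.07 for all measured genes.

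**Figure D1:**
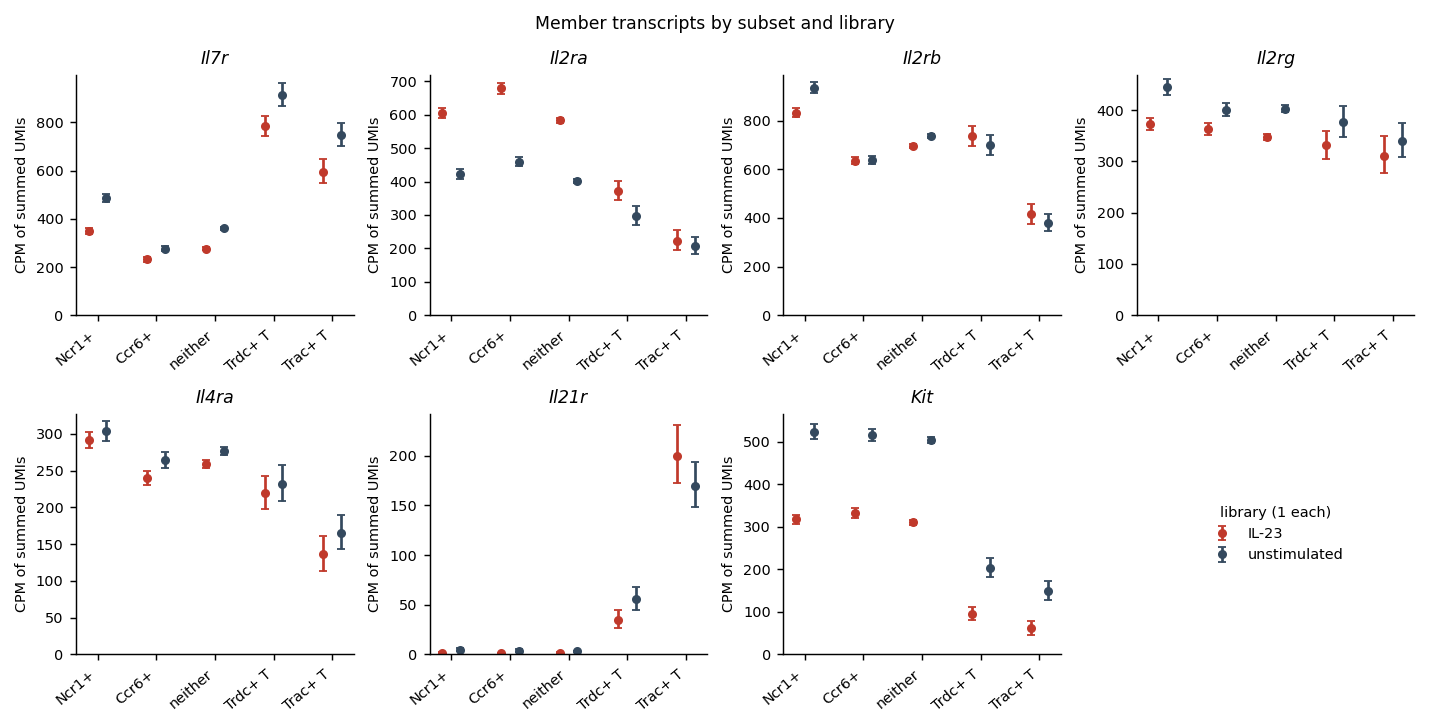
Level of each member in CPM of summed UMIs (y axis) by subset (x axis) in the IL-23 (red) and unstimulated (blue) library, 1 library each, with exact Poisson 95% intervals. Kit is lower with IL-23 in all 5 subsets, Il2ra is higher in the CD3-negative ones, and Il21r is near 0 in the CD3-negative ones. In both T cell subsets the share of Kit-positive cells is within the wide intervals of the B cell and macrophage gates.

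The receptor tyrosine kinase gene Kit stood at 317 CPM in IL-23 and 523 CPM in unstimulated Ncr1+ cells. It stood at 332 CPM in IL-23 and 515 CPM in unstimulated Ccr6+ cells, and at 311 CPM in IL-23 and 504 CPM in unstimulated cells of the neither subset. The intervals of the libraries were apart in each of these subsets. Kit was thereby 1.65-fold lower with IL-23 in Ncr1+ cells (interval 1.57 to 1.73), 1.55-fold lower in Ccr6+ cells (1.48 to 1.62) and 1.62-fold lower in the neither subset (1.58 to 1.66). Only 3.88%, 3.28% and 2.33% of measured genes had a lower ratio in these subsets. Relative to the median gene of each subset the log2 differences were -0.60, -0.52 and -0.59. The Ccr6+ ratio fell under the size with TMM scaling, the trimmed mean of M values (1.43-fold lower), and with median-of-ratios scaling (1.41-fold lower), which also put the Ncr1+ ratio just under it.

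T cells held less Kit than the CD3-negative subsets in both libraries. Gamma delta T cells held 95.8 CPM with IL-23 and 203 CPM unstimulated, a 2.12-fold lower level (1.75 to 2.57). Alpha beta T cells held 61.6 CPM with IL-23 and 149 CPM unstimulated, 2.41-fold lower (1.80 to 3.31), from 58 UMIs with IL-23 and 191 unstimulated. These counts are small, and the wide intervals show it. With cells thinned to 2000 UMIs the alpha beta level was 1.61-fold lower with IL-23, outside that interval. Among the 3 CD3-negative subsets the Kit levels of neighbours in rank overlapped within each library, and the drop to gamma delta T cells was 3.25-fold with IL-23 and 2.48-fold unstimulated. A Kit UMI was found in 36.7% of IL-23 and 47.8% of unstimulated gamma delta T cells, and in 30.3% of IL-23 and 42.9% of unstimulated alpha beta T cells. Their median depths were 7111 UMIs with IL-23 and 6154 unstimulated in gamma delta, and 8414 with IL-23 and 6793 unstimulated in alpha beta T cells. Cells with at least 3 macrophage markers, which should lack Kit, had one in 50% of 6 IL-23 cells (11.8 to 88.2) and 33.3% of 12 unstimulated cells (9.92 to 65.1), at a median depth of 6538 UMIs with IL-23 and 7237 unstimulated. With IL-23 the share of both T cell subsets was below that of this gate, and in both libraries it lay inside the gate's interval. A gate of 6 and 12 cells with such wide intervals cannot decide whether Kit in T cells is expression. Its cells are also CD3-negative and held 268 CPM of Il2rb with IL-23 and 390 CPM unstimulated. The lower Kit level in T cells is therefore given as a count and not read as a difference in expression. In cells with at least 2 B cell markers the share was 12.5% of 8 IL-23 cells (median 6846.5 UMIs) and 30% of 20 unstimulated cells (11.9 to 54.3, median 9597 UMIs).

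The lower Kit level was seen in the number of cells with a UMI as well as in the number of UMIs per cell. Both are counts of the same UMIs as the level and not separate evidence. After every cell was thinned to 2000 UMIs, which left out 324 IL-23 and 397 unstimulated cells of the subsets, a Kit UMI remained in 42.1% of IL-23 and 56.7% of unstimulated Ncr1+ cells. The share was 45.6% of IL-23 and 58.2% of unstimulated Ccr6+ cells, and 42.3% of IL-23 and 57.1% of unstimulated cells in the neither subset. Every CD3-negative subset thus had a smaller share of cells with a Kit UMI with IL-23. Unthinned, the shares ran from 71.7% to 78.9% in the IL-23 and from 78.6% to 87.1% in the unstimulated CD3-negative subsets. They exceeded the intervals of the B cell gate in both libraries and of the macrophage gate in the unstimulated one, while the interval from 6 IL-23 macrophage-gate cells includes them. At equal depth that gate held a Kit UMI in 50% of 6 IL-23 (11.8 to 88.2) and 27.3% of 11 unstimulated cells (6.02 to 61.0). Both intervals include the CD3-negative shares at equal depth, so this small gate cannot decide whether those are above background. The B cell gate at equal depth held a Kit UMI in 0% of 8 IL-23 (0 to 36.9) and 10% of 20 unstimulated cells (1.23 to 31.7). The CD3-negative shares at equal depth lay above these B-gate intervals in both libraries. Cells with 3 or more Kit UMIs at equal depth made up 4.25% of IL-23 and 11.3% of unstimulated Ncr1+ cells. Mast cells are among the other intestinal cells known for high Kit. Their markers Fcer1a, Ms4a2, Mcpt1 and Mcpt2 were at 0 in all 10 sums, with Cpa3 at no more than 1.26 CPM.

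**Figure D2:**
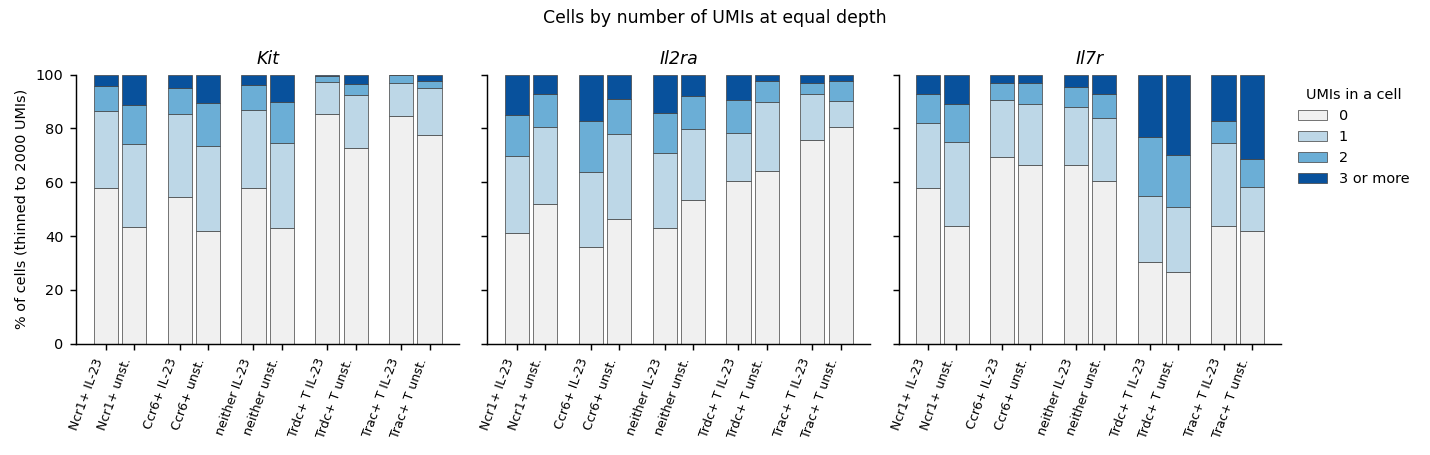
Share of cells (y axis, %) with 0, 1, 2 or 3 or more UMIs of Kit, Il2ra and Il7r after thinning every cell to 2000 UMIs, by subset and library (x axis). In each CD3-negative subset the bars of Kit hold fewer IL-23 cells with 3 or more UMIs than unstimulated cells, while those of Il2ra hold more.

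The IL-2 receptor α chain gene Il2ra, whose product raises the affinity for IL-2, went the other way. It stood at 604 CPM in IL-23 and 422 CPM in unstimulated Ncr1+ cells, at 679 CPM in IL-23 and 460 CPM in unstimulated Ccr6+ cells, and at 583 CPM in IL-23 and 400.5 CPM in unstimulated cells of the neither subset. The libraries did not overlap in any of these subsets. The ratios were 1.43-fold (1.37 to 1.5), 1.48-fold (1.42 to 1.53) and 1.46-fold (1.42 to 1.49) higher with IL-23, just under the 1.5-fold size in each. In these subsets 5.92%, 3.08% and 4.45% of measured genes had a higher ratio. TMM scaling, which shifts all log2 ratios of a subset by 0.06 to 0.13, gave 1.57-fold, 1.60-fold and 1.55-fold, so that Il2ra passed the size in all 3.

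The Il2ra ratios were smaller in T cells on all UMIs. Gamma delta T cells held 372 CPM with IL-23 and 297 CPM unstimulated (1.25-fold higher, 1.11 to 1.41), but the ratio was 1.51-fold with cells thinned to 2000 UMIs, against 1.41-fold in the neither subset. Alpha beta T cells held 223 CPM with IL-23 and 207 CPM unstimulated, with an interval of the ratio that includes 1 (0.897 to 1.3). Whether the ratio differs between T and CD3-negative cells was not tested. Ccr6+ cells ranked highest for Il2ra in both libraries, Ncr1+ and neither cells overlapped, and the T cell subsets ranked lowest. At equal depth a UMI of Il2ra was found in 63.9% of IL-23 and 53.7% of unstimulated Ccr6+ cells, and in 0 of 8 IL-23 and 10% of 20 unstimulated cells of the B gate, a cell type with little Il2ra at rest. Unthinned, the shares were 87.4% of IL-23 and 76.7% of unstimulated Ccr6+ cells, and 12.5% of IL-23 and 30% of unstimulated B-gate cells. The macrophage gate held a UMI at equal depth in 33.3% of 6 IL-23 (4.33 to 77.7) and 18.2% of 11 unstimulated cells (2.28 to 51.8), and unthinned in 50% with IL-23 and 25% unstimulated. With IL-23 the shares of all 5 subsets at equal depth were within this gate's interval, from 24.5% in alpha beta T cells to 63.9% in Ccr6+ cells. Unstimulated, the Ccr6+ share of 53.7% lay above the interval. The other unstimulated subsets were within it, from 19.4% in alpha beta T cells to 48.1% in Ncr1+ cells. A gate this small cannot decide whether the shares within its interval are above background.

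The β chain gene Il2rb, which serves IL-2 and IL-15, was highest in Ncr1+ cells and lowest in alpha beta T cells. It stood at 832 CPM in IL-23 and 936 CPM in unstimulated Ncr1+ cells, against 414 CPM in IL-23 and 379 CPM in unstimulated alpha beta T cells. The other subsets lay between 635 and 737 CPM with IL-23 and between 637 and 737 CPM unstimulated. Its ratios between the libraries ran from 0.890-fold in Ncr1+ cells to 1.09-fold in alpha beta T cells, all inside the 1.5-fold size. At equal depth 77.1% of IL-23 and 81.7% of unstimulated Ncr1+ cells held a UMI, and unthinned 97.8% of IL-23 and 96.5% of unstimulated ones. In B-gate cells the share at equal depth was 0% of 8 IL-23 and 15% of 20 unstimulated cells, and unthinned it was 12.5% with IL-23 and 30% unstimulated. In macrophage-gate cells it was 33.3% of 6 IL-23 and 27.3% of 11 unstimulated cells at equal depth, and 33.3% with IL-23 and 50% unstimulated without thinning.

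The shared subunit gene Il2rg was the most even member. Its level ran from 311 CPM in alpha beta T cells to 373 CPM in Ncr1+ cells with IL-23, and from 340 to 444 CPM in the same subsets unstimulated. Neighbouring subsets in that order overlapped throughout the IL-23 library, and in the unstimulated library the Ncr1+ level alone stood clear of the next. The ratios were 0.840-fold in Ncr1+ cells, 0.907-fold in Ccr6+ cells, 0.864-fold in the neither subset, 0.879-fold in gamma delta and 0.915-fold in alpha beta T cells. None reached the 1.5-fold size. Nearly all lymphocytes and macrophages can express this chain, so no gate in the sort serves as a background for it. Unthinned, an Il2rg UMI was found in 80.1% to 89.9% of the cells of the IL-23 subsets and in 79.4% to 88.7% of the cells of the unstimulated ones.

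Il7r, the α chain gene of the IL-7 and TSLP receptors, ranked in the same order in both libraries, with no overlap between neighbours. Gamma delta T cells held 784 CPM with IL-23 and 914 CPM unstimulated, and alpha beta T cells 596 CPM with IL-23 and 748 CPM unstimulated. Ncr1+ cells followed with 349 CPM in the IL-23 and 486 CPM in the unstimulated library. The neither subset held 276 CPM with IL-23 and 361 CPM unstimulated, and Ccr6+ cells held 232 CPM with IL-23 and 276 CPM unstimulated. Gamma delta T cells thus exceeded the neither subset 2.84-fold with IL-23 (2.68 to 3.01) and 2.53-fold unstimulated (2.39 to 2.67). Of the CD3-negative subsets, Ncr1+ cells held 1.51-fold the level of Ccr6+ cells with IL-23.

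Between the libraries Il7r stayed inside the 1.5-fold size. Its level with IL-23 was 1.39-fold lower in Ncr1+ cells (1.33 to 1.46), 1.31-fold lower in the neither subset (1.28 to 1.35), 1.25-fold lower in alpha beta T cells, 1.19-fold lower in Ccr6+ cells and 1.17-fold lower in gamma delta T cells. The 5 intervals exclude 1, and between 11% (neither subset) and 32.8% (gamma delta T cells) of measured genes had a lower ratio. At equal depth an Il7r UMI was found in 42.1% of IL-23 and 56.3% of unstimulated Ncr1+ cells, and in 30.5% of IL-23 and 33.5% of unstimulated Ccr6+ cells. B-gate cells held one in 0% of 8 IL-23 (0 to 36.9) and 15% of 20 unstimulated cells (3.21 to 37.9), both thinned and unthinned. The macrophage gate held one at equal depth in 50% of 6 IL-23 (11.8 to 88.2) and 36.4% of 11 unstimulated cells (10.9 to 69.2), and unthinned in 50% with IL-23 and 50% unstimulated. The Ccr6+ shares at equal depth were below that gate's share in both libraries, and the Ncr1+ share was below it with IL-23. With 6 and 11 cells the gate's intervals are too wide to decide whether these shares are above background. Its cells also belong to the CD3-negative cells from which the subsets were drawn. The B-gate intervals include the Ccr6+ shares at equal depth, while the Ncr1+ shares lay above them in both libraries. The unthinned shares were 73.4% of IL-23 and 79.7% of unstimulated Ncr1+ cells, and 58.7% of IL-23 and 57.4% of unstimulated Ccr6+ cells.

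Il4ra, which encodes the α chain of the IL-4 and IL-13 receptors, was highest in Ncr1+ cells (292 CPM with IL-23, 304 CPM unstimulated) and lowest in alpha beta T cells (136 CPM with IL-23, 165 CPM unstimulated). The remaining subsets held 219 to 259 CPM with IL-23 and 232 to 277 CPM unstimulated. Ratios between the libraries ran from 0.825-fold in alpha beta T cells to 0.961-fold in Ncr1+ cells. None reached the 1.5-fold size, except that thinning to 2000 UMIs gave a 1.98-fold lower level in alpha beta T cells. That value rests on a mean of 0.173 UMIs per cell in 98 IL-23 cells and 0.35 in 160 unstimulated cells. In gamma delta T cells the same thinning gave a 1.24-fold higher level with IL-23.

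Il21r, the private chain of the IL-21 receptor, lies 23955 bp downstream of Il4ra on chromosome 7 and had a different distribution. Alpha beta T cells held 200 CPM with IL-23 and 170 CPM unstimulated, and gamma delta T cells 34.4 CPM with IL-23 and 55.3 CPM unstimulated. The CD3-negative subsets held 1.11 to 1.88 CPM with IL-23 (12 to 65 UMIs) and 3.30 to 4.66 CPM unstimulated (32 to 122 UMIs), below the 10 CPM needed to count as measured. On these few UMIs the ratio was 3.75-fold lower with IL-23 in Ncr1+ cells (1.93 to 8.19), 3.24-fold lower in Ccr6+ cells (1.67 to 7.07) and 1.75-fold lower in the neither subset (1.29 to 2.41). Alpha beta T cells exceeded the neither subset 106-fold with IL-23 (79.8 to 143) and 51.5-fold unstimulated (41.1 to 64.8). An Il21r UMI was found in 57.6% of IL-23 and 38.7% of unstimulated alpha beta T cells, and in 0.795% of IL-23 and 2.76% of unstimulated Ncr1+ cells. The difference between the alpha beta shares shrinks to 25.5% with IL-23 and 21.9% unstimulated at equal depth. Macrophage-gate cells held one in 0 of 6 IL-23 cells and 1 of 12 unstimulated cells. B cells express IL-21R, and the B gate held 127 CPM with IL-23 and 79.8 CPM unstimulated.

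In gamma delta T cells Il21r was 1.60-fold lower with IL-23 (1.14 to 2.27), from 60 UMIs with IL-23 and 88 unstimulated. This size was not kept when cells were limited to 5% mitochondrial UMIs (1.41-fold), when cells with both Trdc and Trac were added (1.38-fold) or when cells were thinned (1.18-fold). In alpha beta T cells the ratio was 1.18-fold with an interval that includes 1 (0.962 to 1.44). Within gamma delta T cells, those with a UMI of the Vδ segment gene Trdv4 held 18.4 CPM of Il21r in the IL-23 and 20.6 CPM in the unstimulated library. Gamma delta T cells without one held 57.8 CPM in the IL-23 and 117 CPM in the unstimulated library, so that the level was higher without Trdv4 in both libraries.

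**Figure D3:**
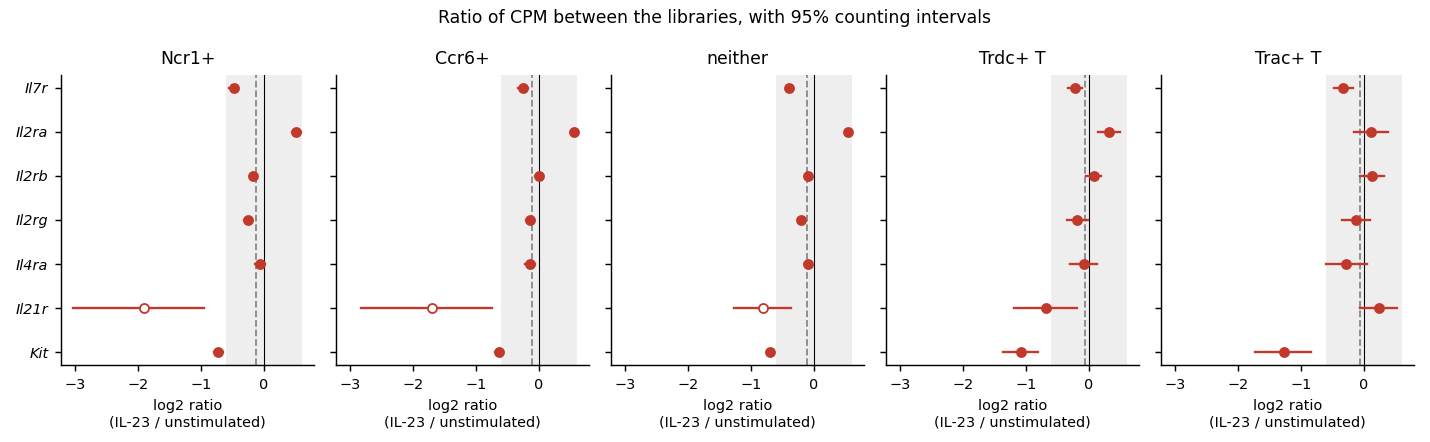
Log2 ratio of CPM, IL-23 over unstimulated (x axis), of each member (y axis) in each subset, with exact 95% counting intervals. Grey bands mark ratios under 1.5-fold, dashed lines the median of all measured genes and open points pairs that were not measured. Kit lies left of the band in all 5 subsets. In both T cell subsets its share of positive cells is within the wide intervals of the B cell and macrophage gates.

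Within the CD3-negative cells the members varied with other markers. A UMI of Tbx21, which encodes the type 1 transcription factor T-bet, was present in 406 IL-23 and 420 unstimulated cells. In the IL-23 library Il2rb stood at 937 CPM in cells with Tbx21 and 694 CPM in cells without it, and in the unstimulated library at 966 CPM with and 734 CPM without it. Il7r stood at 442 CPM with and 270 CPM without Tbx21 in the IL-23 library, and at 540 CPM with and 353 CPM without it in the unstimulated library. Both were thus higher in the Tbx21-positive cells. Il2ra ran the opposite way, with 520 CPM with and 613 CPM without Tbx21 in the IL-23 library and 336 CPM with and 418 CPM without it in the unstimulated one. These 3 orders also held within the neither subset, with intervals apart. The Kit intervals of cells with and without Tbx21 overlapped in both libraries. Cells with Tbx21 were deeper, with a median of 7520.5 against 5956 UMIs with IL-23 and 6172 against 4808 unstimulated. The Tbx21 split was not repeated at equal depth.

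A UMI of the MHC class II gene H2-Aa was present in 1629 IL-23 and 1785 unstimulated CD3-negative cells. These cells held 205 CPM of Il7r against 299 CPM in cells without H2-Aa with IL-23, and 247 CPM with against 391 CPM without it unstimulated. Il2rb stood at 600.1 CPM with and 736 CPM without H2-Aa in the IL-23 library, and at 597 CPM with and 783 CPM without it in the unstimulated one. Both were lower in the H2-Aa-positive cells of the CD3-negative total, which mixes subsets of different levels. Within Ccr6+ cells Il7r stood at 195 CPM with and 259 CPM without H2-Aa in the IL-23 library, and at 267 CPM with and 282 CPM without it, with overlapping intervals, in the unstimulated one. Il2rb within Ccr6+ cells stood at 591 CPM with and 669 CPM without H2-Aa in the IL-23 library and at 598 CPM with and 665 CPM without it in the unstimulated one, with intervals apart in each. Kit stood at 325 CPM with and 314 CPM without H2-Aa in the IL-23 library, with overlapping intervals, and at 470 CPM with and 517 CPM without it in the unstimulated library, where the intervals overlapped within Ccr6+ cells.

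Batf, an AP-1 family gene that was 18.8-fold higher with IL-23 in the neither subset, had a UMI in 6944 of the IL-23 and 1201 of the unstimulated CD3-negative cells. Il2ra stood at 633 CPM in cells with and 460 CPM in cells without Batf in the IL-23 library, and at 508 CPM with and 399 CPM without it in the unstimulated library. Cells with a Batf UMI also hold more UMIs in all, so the split was repeated at equal depth in the IL-23 library. Il2ra then stood at 611 CPM with and 509 CPM without Batf in the neither subset, at 620 CPM with and 547 CPM without it in Ncr1+ cells and at 695 CPM with and 624 CPM without it in Ccr6+ cells. The intervals were apart in the neither subset and overlapped in the other two. Kit at equal depth stood at 290 CPM with and 329 CPM without Batf in the neither subset, with intervals apart. It stood at 292 CPM with and 345 CPM without Batf in Ncr1+ cells and at 327 CPM with and 344 CPM without it in Ccr6+ cells, with overlapping intervals. In all unstimulated CD3-negative cells, unthinned, Kit ran the other way, at 546 CPM with and 502 CPM without Batf, with intervals apart.

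**Figure D4:**
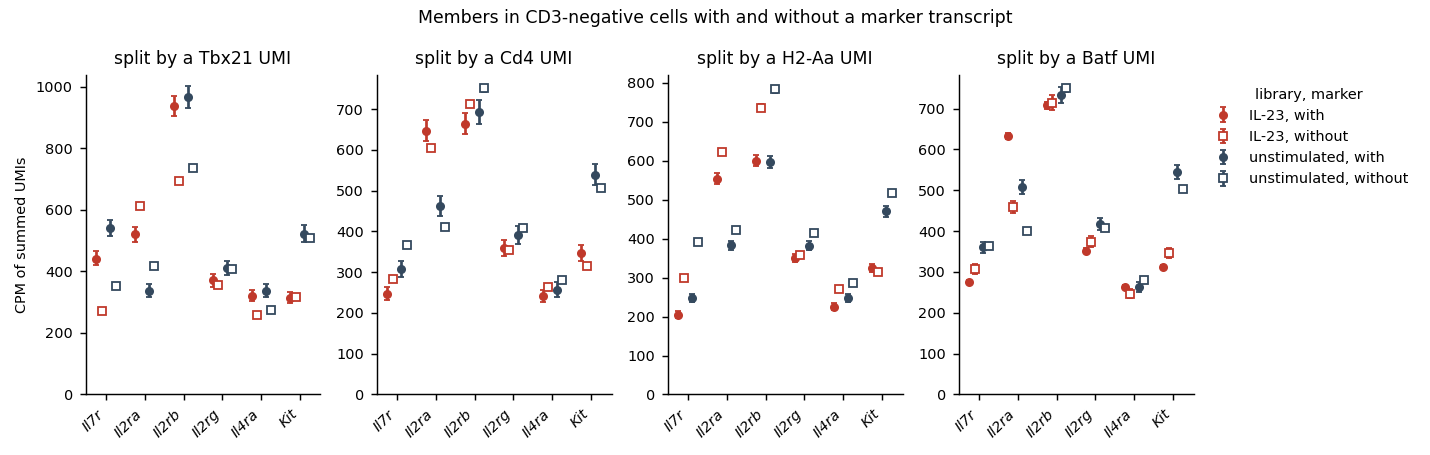
Level of 6 members in CPM (y axis) in CD3-negative cells with (filled) and without (open) a UMI of Tbx21, Cd4, H2-Aa or Batf, in the IL-23 (red) and unstimulated (blue) library, with exact Poisson 95% intervals. Il2rb and Il7r are higher with Tbx21 in both libraries and Il2ra is higher with Batf in both.

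Cells with all subunits of the high-affinity IL-2 receptor were counted at 2000 UMIs per cell. UMIs of Il2ra, Il2rb and Il2rg were found together in 23.8% of IL-23 and 21.6% of unstimulated Ncr1+ cells, where the product of the 3 single shares is 23.4% with IL-23 and 22.3% unstimulated. In Ccr6+ cells they were found together in 21.9% of IL-23 cells (product 21.7%) and 19.1% of unstimulated cells (18.7%). In the neither subset the values were 20.6% of IL-23 cells (19.7%) and 18.5% of unstimulated cells (17.9%). The share in gamma delta T cells was 13.8% with IL-23 and 15.1% unstimulated, and in alpha beta T cells 8.16% with IL-23 and 6.88% unstimulated. In the CD3-negative subsets joint detection was thus close to what the single shares give at this depth. Il7r and Kit were found together in 16.7% of IL-23 Ccr6+ cells (14.8 to 18.7; product 13.9%) and in 24.2% of unstimulated cells of the neither subset (23.2 to 25.2; product 22.7%), the intervals that lay above their product among the 10 sums. The other 8 intervals included it, among them those of alpha beta T cells (5.10% with IL-23 for a product of 8.59%, and 9.38% unstimulated for a product of 13.1%).

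For each member, 3 genes whose level was most like its own were taken over the 10 sums of subset and library among 4010 genes, by Pearson correlation of log2(CPM + 1). The sums share libraries and depth, so the coefficients are descriptions. They were Rnf146, Rab5a and Peak1 for Kit (0.99, 0.99 and 0.99), Cd84, Laptm5 and Tprgl for Il7r (0.99, 0.99 and 0.98), and Ptges3, Espn and Gm20186 for Il2ra (0.98, 0.97 and 0.97). Those of Il2rb were Slc23a2, Tnfrsf9 and Rcor1 (0.98, 0.97 and 0.96), and those of Il2rg were Mbp, Kdm5b and Poldip3 (0.98, 0.97 and 0.96). For Il4ra they were St3gal3, Tmem243 and Scpep1 (0.99, 0.99 and 0.98), and for Il21r Mettl23, Eif4ebp2 and Mrps16 (0.99 each).

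Other genes of these pathways were counted from fixed lists. Of 9 ligand genes (Il2, Il4, Il7, Il9, Il13, Il15, Il21, Kitl and Tslp), 0 were measured in any subset. Of 4 receptor partners, 2 were measured. Il15ra, the IL-15 receptor α chain, stood at 25.5 CPM with IL-23 and 12.5 CPM unstimulated in the neither subset (2.04-fold higher, 1.82 to 2.29), and was 2.27-fold higher in Ncr1+ and 1.79-fold higher in Ccr6+ cells. Crlf2, the TSLP receptor chain that pairs with IL-7Rα, was 1.78-fold higher in gamma delta and 1.77-fold higher in alpha beta T cells.

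Of 10 JAK and STAT genes, all measured, 2 were higher and 0 lower in Ncr1+ cells, 2 higher and 0 lower in Ccr6+ cells, 1 higher and 1 lower in the neither subset, 1 higher and 2 lower in gamma delta and 1 higher and 1 lower in alpha beta T cells. Jak3, the kinase bound to the common gamma chain, was higher in all 5, at 12.8 CPM with IL-23 and 4.24 CPM unstimulated in the neither subset (3-fold, 2.5 to 3.63). Jak1, the kinase of the private chains, stood at 565 CPM in IL-23 and 544 CPM in unstimulated cells of that subset and did not reach the size anywhere. Of 10 feedback genes, Socs3 was higher in all 5 subsets, from 2.49-fold in Ccr6+ to 6.09-fold in Ncr1+ cells. The STAT5 target Cish stood at 357 CPM with IL-23 and 318 CPM unstimulated in the neither subset, inside the size.

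Among 8 survival and growth targets, 7 were measured in each CD3-negative subset, of which 3 were higher and 1 was lower in each. The kinase gene Pim2 was 2.68-fold higher in the neither subset and Myc, which drives growth, 4.70-fold higher, and both passed the size in all 5 subsets. The cytokine gene Lif was 1.99-fold higher in the neither subset. Bcl2, which protects lymphocytes from death and is maintained by IL-7, stood at 45.2 CPM with IL-23 and 92.1 CPM unstimulated in the neither subset. It was 2.04-fold lower there, 2.71-fold lower in Ncr1+, 2.02-fold lower in Ccr6+ and 2.58-fold lower in gamma delta T cells.

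Of 10 regulators of Il7r and FOXO partners, Ikzf1, which encodes the transcription factor Ikaros, was 1.88-fold higher in Ncr1+ cells and 1.86-fold higher in the neither subset. Foxo1, which promotes Il7r transcription in T cells, was 1.56-fold lower in Ncr1+ cells and inside the size in the other 4 subsets. Of 10 genes of KIT signalling, Pik3r1 and Lyn were lower in all 5 subsets. Pik3r1, the regulatory subunit of PI3 kinase, stood at 207 CPM with IL-23 and 434 CPM unstimulated in the neither subset (2.10-fold lower, 2.04 to 2.16). Lyn, a Src family kinase, stood at 197 CPM with IL-23 and 357 CPM unstimulated there (1.81-fold lower, 1.76 to 1.87). The other measured genes of this list lay inside the size in every subset, except Sos1, which was higher in gamma delta T cells. As a check of the labels, Il22 was 4.61-fold higher and Batf 18.8-fold higher with IL-23 in the neither subset.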

How the data were processed

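The authors deposited UMI counts per gene and barcode, which are whole numbers and not normalized. Per the submitters' processing notes the build was mm10 and the tool Cell Ranger 3.1.0, while the headers name cellranger 6.0.0. Their annotation and cell calling rule are not stated in the labels or headers. No doublet caller was run. Cells with UMIs of both Ncr1 and Ccr6, or of both Trdc and Trac, were set aside. So were cells with Cd3e but neither Trdc nor Trac (97 IL-23 and 77 unstimulated). Cells with Cd3d or Cd3g but no Cd3e (238 IL-23 and 220 unstimulated) were also left out, so the T cell values do not cover all CD3-bearing cells.

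UMIs were summed per library and subset and scaled to CPM. Ratios had 0.5 UMI added to each sum, with exact conditional binomial intervals. Levels have exact Poisson intervals and shares exact Clopper-Pearson intervals (Python 3.11.15, numpy 2.4.6, scipy 1.17.1, pandas 2.3.3). Ratios past 1.5-fold are called as a size, not a test. UMIs are molecules, but they do not stand for animals. The ratio code was checked on simulated counts. For shares at equal depth each cell was thinned at random to 2000 UMIs. Gene positions came from GENCODE (GRCm38).

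Members and lists were chosen with earlier results of these data known. All 7 members are named. List genes are named if at least 1.5-fold different in at least 2 of the 3 CD3-negative subsets, at most 4 a list. Crlf2, Jak1, Cish, Foxo1 and Sos1 were named after their values were seen. Markers of 17 cell types and states were counted in every sum.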

Additional observations from a re-analysis of the deposited data

Results flagged for a closer look

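The filters dropped 1189 IL-23 barcodes with 932010 UMIs and 306 unstimulated barcodes with 294395 UMIs, which enter no comparison above. In these dropped barcodes Il2ra stood at 703.9 CPM in the IL-23 library (interval 651 to 760) and 431 CPM in the unstimulated library (360 to 513). Il2rb stood at 776.8 CPM in the dropped IL-23 barcodes (721 to 836) and 455 CPM in the dropped unstimulated barcodes (381 to 539). Both were picked out because their signal in the unused IL-23 barcodes lay above that in the unused unstimulated ones, with intervals apart. For Il2rb the kept cells showed no such gap in any subset, and the makeup of the dropped barcodes was not tested.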

How the results depend on the processing

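No paired analysis was possible because the labels give no replicate numbers and each group is 1 library, and for the same reason no library could be left out. There were 17 alternatives, 16 planned and 1 added after seeing the data (barcodes shared by both libraries left out). Under them 534 of 595 member ratios stayed within the counting interval of the reported value, 61 moved outside it and 0 called ratios changed sign. Settings that change only the filter on low values (none, 50 CPM) or the size (1.3-fold, 2-fold) leave every ratio as it was. Their part of the 534 was thus fixed in advance. Settings on the Ncr1 and Ccr6 gates likewise leave the neither subset as it was. The 6 lower member pairs became 2 at a 2-fold size. The 0 higher pairs became 3 under TMM, 3 under median-of-ratios scaling, 1 with Il22 left out of the total, 2 with thinned cells and 3 at a 1.3-fold size. Kit in Ccr6+ cells was 1.43-fold lower under TMM and 1.41-fold lower under median-of-ratios scaling, both under the size, and in Ncr1+ cells it lay just under the size with median-of-ratios scaling.

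Over the 3 CD3-negative subsets, counted with repeats, 846 genes were higher and 1078 lower, so 44.0% of the calls were higher, against 65.0% under TMM and 66.3% under median-of-ratios scaling. The higher calls numbered 8046 with no filter on low values, 410 at 50 CPM, 1366 at 1.3-fold and 420 at 2-fold. The lower calls numbered 1638 with 2 UMIs needed of Ncr1 or Ccr6, 596 under TMM, 576 under median-of-ratios scaling, 9819 with no filter, 351 at 50 CPM, 3022 at 1.3-fold and 176 at 2-fold. Il21r in CD3-negative cells rests on 12 to 122 UMIs a sum, and T cell values rest on 99 to 232 cells a sum. The causes of these shifts were not tested.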
